A study of Mus musculus with 12 samples.

Results

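The 9 genes described here encode the invariant CD3 chains of the T cell receptor (TCR), Cd3d, Cd3e, Cd3g and Cd247, and the first kinases and adaptors that act behind the receptor, Lck, Zap70, Lat, Lcp2 and Themis. They were chosen by gene symbol, and their level was taken as the sum of the estimated counts of all transcripts that carry the symbol. The 9 genes held 37 of the 77525 transcripts in the mRNA table, 8 of the 37 being transcripts that the authors assembled from their own reads, and they are 9 of 22843 gene symbols. RNA came from the whole thymus of wild type male C57BL/6 mice, with no transgene or treatment, at 2 weeks (2W), 6 weeks (6W) and 3 months (3M) of age. There were 2 libraries per age for long RNA, which was depleted of ribosomal RNA and sequenced with strand kept, and 2 per age for small RNA. The design addresses the growth of the thymus from 2W to 6W and its early decline from 6W to 3M.

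Developing T cells, called thymocytes, make up most of the thymus, and the TCR decides their fate. The TCR alpha and beta chains bind peptide and MHC, but their cytoplasmic tails are short, and the signal is carried by the CD3 gamma, delta and epsilon chains and by the zeta chain (Cd247), whose tails hold the ITAM motifs. The kinase Lck, brought by CD4 or CD8, phosphorylates the ITAMs, the kinase ZAP-70 (Zap70) docks on them and phosphorylates the scaffold LAT (Lat), and the adaptor SLP-76 (Lcp2) joins LAT to the enzymes that release calcium. Themis is a thymocyte protein that tunes this signal during selection, and all 9 genes are expressed from early stages of T cell development onwards.

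The libraries held between 16519753 and 22553481 estimated counts of long RNA. The Spearman correlation of all genes was 0.983 to 0.993 between libraries of one age and 0.968 to 0.988 between ages. Markers of red blood cells summed to between 402 and 816 counts per 1000000 (CPM) in 5 libraries and to 2167 in 3M replicate 2, which therefore stood apart in its blood content. The changes of the 9 genes at 3M are given below with and without each 3M library. The 12 markers of CD4+CD8+ double-positive thymocytes, the most numerous thymocytes, were all detected and summed to 12400 CPM or more in every library, so that the labelled tissue was matched by its defining markers.

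All 9 genes were abundant in every library. On the FPKM scale, which divides by transcript length and allows genes to be compared, the lowest value was 41.5 FPKM (Zap70 in 3M replicate 1), while the highest value of any of the 14 relatives of these genes that serve other blood cells, such as Fcer1g, Cd79a, Syk and Btk, was 33.8 FPKM (Tyrobp). Lck, the kinase that starts the cascade, was the highest of the 9 at each age, with 507 FPKM ± 28.8 at 2W, 559 ± 8.03 at 6W and 478 ± 53.7 at 3M (mean ± SD, n = 2 libraries), and ranked between 88 and 115 among 22843 gene symbols. Zap70, the kinase that follows Lck, was the lowest of the 9 at each age, with 49.3 FPKM ± 10.4, 54.8 ± 1.90 and 48.6 ± 10.1. The receptor-proximal kinases thus stood at opposite ends of the order.

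Among the CD3 chains, Cd3e had the highest level at each age and Cd247 the lowest. Cd3e had 275 FPKM ± 22.5 at 2W, 314 ± 5.0 at 6W and 248 ± 39.8 at 3M, and Cd247 had 144 FPKM ± 19.4, 167 ± 9.40 and 122 ± 17.0. Cd3g lay above Cd3d at 2W and 6W without overlap, with 224 FPKM ± 47.0 against 162 ± 0.45 at 2W and 273 ± 23.4 against 200 ± 7.25 at 6W. At 3M the libraries of both genes overlapped, with 163 FPKM ± 23.6 for Cd3g and 155 ± 24.9 for Cd3d. The adaptor Lcp2 stood next to last at each age, and neighbours whose libraries overlapped were Themis and Cd3e at 2W and 3M, Cd3g and Lat at 2W, Themis and Lat at 6W, and Cd3e and Lat at 3M.

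Between 2W and 6W the fitted change was upward for 7 of the 9 genes and downward for 2, and between 6W and 3M it was downward for all 9. Summed over the 9 genes, the level was 4381 and 4231 CPM in the 2W libraries, 4288 and 4357 at 6W, and 3632 and 3676 at 3M, where the CPM are TMM-scaled. The 3M libraries lay below all 4 others. In whole tissue, fewer cells of a type and less RNA per cell cannot be told apart. The CPM of each gene in each library is plotted below.

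**Figure D1:**
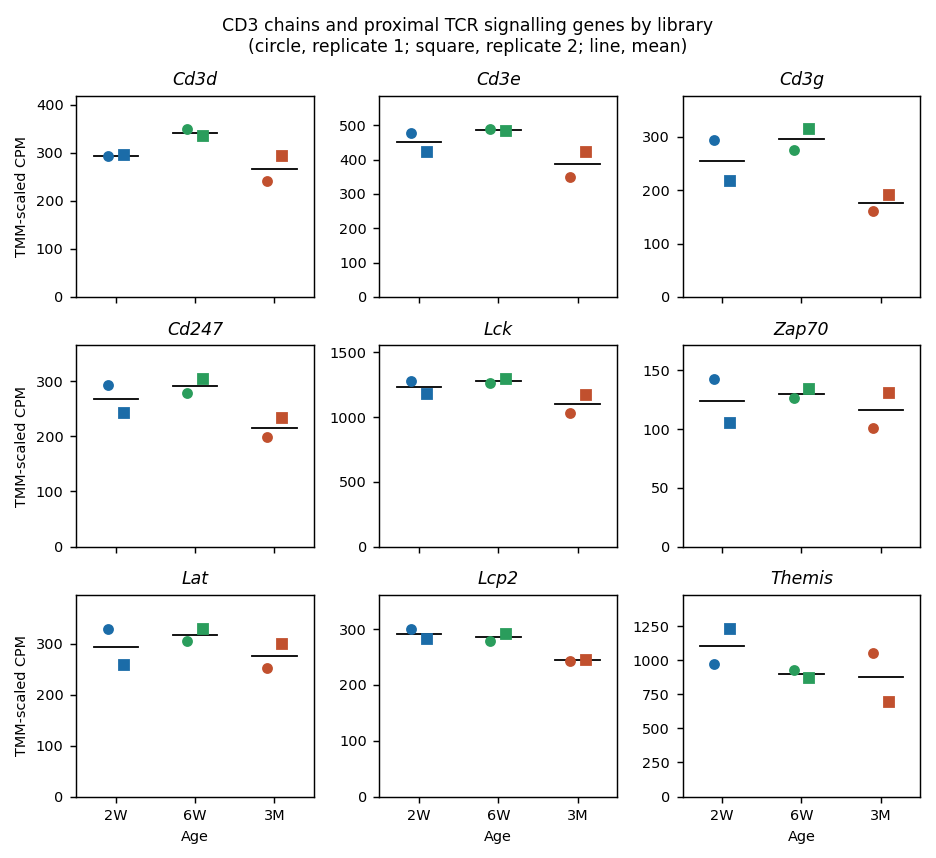
TMM-scaled CPM (y axis, from 0, own scale per gene) of the 9 genes in each library by age (x axis); circles are replicate 1, squares replicate 2 and lines the mean of 2 libraries. Cd3g lies between 161 and 191 CPM at 3M, below all 4 libraries of 2W and 6W, while the Themis libraries of 3M span 694 to 1054 CPM.

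No member passed an adjusted p of 0.05 in any comparison with edgeR's quasi-likelihood test and Benjamini-Hochberg adjustment over 14805 genes. From 2W to 6W, 0 of 9 passed, with adjusted p between 0.377 and 0.89, against 1.74% of all genes tested, and 0 of 9 had an unadjusted p under 0.05, against 18.9%. DESeq2 also called 0 of 9 in this comparison, against 6.37% of the genes to which it gave an adjusted p. From 6W to 3M, 0 of 9 passed, with adjusted p between 0.228 and 0.944, against 0.00675% of all genes, which is 1 gene. The 4 CD3 chains, 4 of 9 members, had an unadjusted p under 0.05 there and all were lower at 3M, against 14.3% of all genes in either direction. From 2W to 3M, 0 of 9 passed, with adjusted p between 0.107 and 0.793, against 11.0% of all genes. Cd3g and Lcp2 had an unadjusted p under 0.05, both lower at 3M, against 27.3% of all genes. DESeq2 called 1 of the 9 genes, Cd3g, in each of the comparisons with 3M, against 3.0% of genes at 3M against 6W and 14.9% at 3M against 2W. None of the 9 gene sums passed the threshold of the study, an unadjusted p under 0.05 with a change above 1 on the log2 scale. By edgeR's quasi-likelihood test, 5.36% of all genes passed it at 6W against 2W, 2.11% at 3M against 6W and 9.35% at 3M against 2W. The study itself used DESeq and compared 2W with 6W and 6W with 3M.

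The median log2 fold change of the 9 genes was 0.11 at 6W against 2W, -0.22 at 3M against 6W and -0.22 at 3M against 2W, while that of all genes tested was -0.01, 0.02 and -0.03. Single libraries moved the median of the 9 genes by more than 1.5 times. It was 0.21 without 2W replicate 1, 0.02 without 2W replicate 2 and 0.05 without 6W replicate 2 at 6W against 2W. It was -0.42 without 3M replicate 2 at 3M against 6W, and at 3M against 2W it was -0.06 without 3M replicate 1 and -0.14 without 2W replicate 1. At 3M against 6W, both 3M libraries lay below both 6W libraries for 7 of 9 members, against 23.3% of all genes. At 3M against 2W this held for 6 of 9, against 24.0% of all genes, and for 3 of the 6, Cd3d, Cd3e and Lck, the nearest libraries differed by less than 1%. At 6W against 2W the libraries did not overlap for 3 of 9 members, Cd3d and Cd3e being higher and Themis lower, against 57.8% of all genes in either direction. These comparisons share libraries, so that a low 3M library enters both counts that involve 3M. The 9 genes are also parts of one receptor pathway in the same cells and are not independent of each other.

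Cd3g, which encodes CD3 gamma, had the largest fitted decrease of the 9 at 3M. Its libraries had 294 and 217 CPM at 2W, 276 and 314 at 6W, and 161 and 191 at 3M. Both 3M libraries were the lowest of the 6. The log2 fold change was -0.75 (SE 0.18, 95% interval -1.17 to -0.32) at 3M against 6W, with an adjusted p of 0.228 by edgeR's quasi-likelihood test, and -0.54 (SE 0.18, 95% interval -0.96 to -0.12) at 3M against 2W, with an adjusted p of 0.107. DESeq2 gave -0.76 with an adjusted p of 0.00607 and -0.55 with an adjusted p of 0.032 for the same contrasts. Over all alternatives and with each library left out, the change against 6W lay between -0.93 and -0.62 and kept its sign, while without 2W replicate 1 the change against 2W was -0.30. Libraries of 6W and 2W overlapped (0.21, SE 0.18, adjusted p of 0.55 by edgeR's quasi-likelihood test), and this value was 0.45 without 2W replicate 1, 0.03 without 2W replicate 2 and 0.11 without 6W replicate 2.

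Cd247, the zeta chain, which carries more ITAMs than any other chain of the complex, had 293 and 243 CPM at 2W, 278 and 304 at 6W, and 198 and 232 at 3M. Again both 3M libraries were the lowest of the 6. Its log2 fold change was -0.43 (SE 0.14, adjusted p of 0.278 by edgeR's quasi-likelihood test) at 3M against 6W and -0.32 (SE 0.14, adjusted p of 0.206) at 3M against 2W, which became -0.18 without 2W replicate 1.

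Cd3d, the CD3 delta chain, had 293.6 and 294.5 CPM at 2W, 349 and 334 at 6W, and 241 and 292.1 at 3M. The highest libraries were those of 6W, and 3M replicate 2 lay just under the 2W libraries. For Cd3d, the log2 fold change was 0.22 (SE 0.12, adjusted p of 0.377 by edgeR's quasi-likelihood test) at 6W against 2W and -0.36 (SE 0.12, adjusted p of 0.292) at 3M against 6W. Cd3e, the epsilon chain that pairs with both gamma and delta, had 477 and 423.2 CPM at 2W, 489 and 483 at 6W, and 349 and 423.2 at 3M. The second libraries of 2W and 3M were thus equal to 4 digits. Its log2 fold change was -0.33 (SE 0.13, adjusted p of 0.32 by edgeR's quasi-likelihood test) at 3M against 6W and -0.22 (SE 0.13, adjusted p of 0.317) at 3M against 2W, the latter being -0.13 without 2W replicate 1.

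Lck had 1281 and 1180 CPM at 2W, 1259 and 1294 at 6W, and 1034 and 1169 at 3M. Its 3M libraries were the lowest, by a margin of under 1% for 3M replicate 2 against 2W replicate 2. The log2 fold change at 3M against 6W was -0.21 (SE 0.10, 95% interval -0.45 to 0.03). Zap70 had 143 and 105 CPM at 2W, 126 and 134 at 6W, and 101 and 131 at 3M. The ages of Zap70 overlapped in every comparison, and its log2 fold change at 3M against 6W was -0.16 (SE 0.19, 95% interval -0.61 to 0.28).

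Lat, the membrane scaffold, had 329 and 257 CPM at 2W, 304 and 329 at 6W, and 252 and 299 at 3M. Its 3M libraries lay below those of 6W, and 3M replicate 1 was the lowest of the 6. The log2 fold change at 3M against 6W was -0.20 (SE 0.15, 95% interval -0.57 to 0.17). Lcp2, which encodes SLP-76, had 300.4 and 282 CPM at 2W, 278 and 292 at 6W, and 243 and 245 at 3M. The libraries of 3M differed by less than 1% and lay below all others. The log2 fold change of Lcp2 was -0.22 (SE 0.10, adjusted p of 0.364 by edgeR's quasi-likelihood test) at 3M against 6W and -0.26 (SE 0.10, 95% interval -0.49 to -0.02, adjusted p of 0.156) at 3M against 2W.

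Themis had another pattern across the libraries than the other 8 genes. It had 971 and 1230 CPM at 2W, 928 and 873 at 6W, and 1054 and 694 at 3M. The 2 libraries of 3M were the second highest and the lowest of the 6, and the spread between them was larger than the difference between any 2 ages. In the fit it had a log2 fold change of -0.29 (SE 0.21, 95% interval -0.79 to 0.21) at 6W against 2W and -0.04 (SE 0.21, 95% interval -0.54 to 0.46) at 3M against 6W. The first value was -0.45 without 2W replicate 1 and -0.08 without 2W replicate 2. Without 3M replicate 2, which is also the library with the high red blood cell markers, the second value became 0.17.

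**Figure D2:**
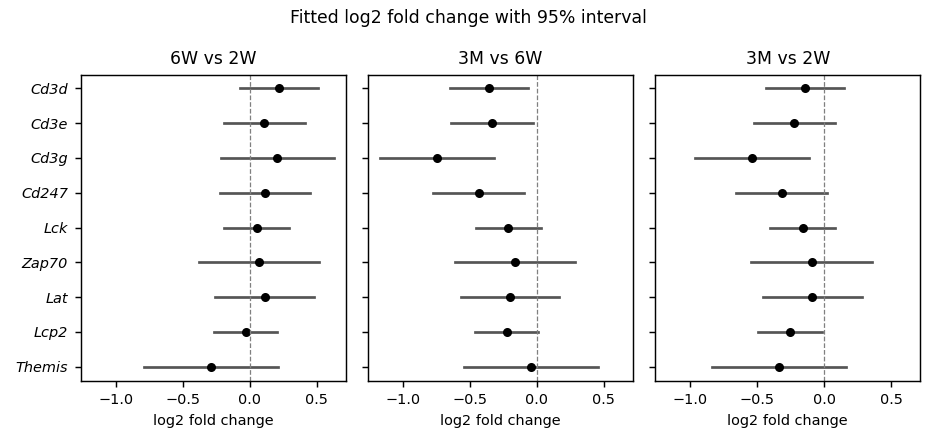
Fitted log2 fold change (x axis) of the 9 genes (y axis) in the 3 comparisons between ages; points are edgeR estimates over 6 libraries and lines their 95% intervals. In the 3M vs 6W panel all 9 points lie left of 0, from -0.75 for Cd3g to -0.04 for Themis, and the intervals of the 4 CD3 chains do not reach 0.

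The library with the lowest members was 3M replicate 1, which was also the library with the highest sum of adipocyte markers, 501 CPM against 245 in 3M replicate 2 and between 79.5 and 226 in the others. The part of fat in the members' level there was not tested. Relative to each gene's own mean on the log2 CPM scale, the 9 genes averaged -0.25 in 3M replicate 1 and -0.11 in 3M replicate 2, against 0.14 and -0.03 at 2W and 0.10 and 0.15 at 6W. In 3M replicate 1, 1 of the 9 genes (Themis) lay above its own mean, and in 3M replicate 2, 2 of 9 did. The size of the changes depended on which 3M library was kept. Without 3M replicate 2, the log2 fold changes at 3M against 6W were -0.93 for Cd3g, -0.61 for Cd247, -0.56 for Cd3d, -0.53 for Cd3e, -0.36 for Lck, -0.42 for Zap70, -0.38 for Lat, -0.28 for Lcp2 and 0.17 for Themis. Without 3M replicate 1 they were -0.62, -0.32, -0.22, -0.19, -0.12, 0.02, -0.07, -0.21 and -0.37 in the same order. The values of Cd3d, Cd3e, Lck, Zap70, Lat and Themis thus moved by more than 1.5 times when either 3M library was left out, while those of Cd3g, Cd247 and Lcp2 did not. At 3M against 2W, the values in this order were -0.70, -0.47, -0.32, -0.40, -0.28, -0.33, -0.25, -0.29 and -0.10 without 3M replicate 2. They were -0.39, -0.18, 0.02, -0.06, -0.05, 0.11, 0.06, -0.22 and -0.64 without 3M replicate 1, so that Cd3d, Zap70 and Lat were above 0. At 6W against 2W, Cd3e, Lck, Cd247, Zap70 and Lat had 0.20, 0.11, 0.26, 0.31 and 0.30 without 2W replicate 1, and 0.05, 0.02, 0.02, -0.11 and -0.03 without 2W replicate 2. No member passed an adjusted p of 0.05 by edgeR's quasi-likelihood test with any library left out.

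Ratios within a library do not depend on the scaling between libraries. Relative to Cd3e, the FPKM of Cd3g was 0.885 and 0.737 at 2W, 0.807 and 0.931 at 6W, and 0.663 and 0.649 at 3M. Both 3M values lay below all 4 others. The ratio of Cd247 to Cd3e was 0.524 ± 0.028 at 2W, 0.532 ± 0.038 at 6W and 0.494 ± 0.011 at 3M, and both 3M values lay below the others by a small margin that was lost against 2W with annotated transcripts only. The ratio of Lat to Cd3e was 0.826 and 0.750 at 2W, 0.743 and 0.825 at 6W, and 0.894 and 0.870 at 3M, where both values lay above all 4 others. Both the Cd3g and the Lat ratios kept this order with counts in place of FPKM and with annotated transcripts only. The FPKM ratios of Cd3d, Lck, Zap70, Lcp2 and Themis at 3M overlapped those at 2W. Lat and Cd3e themselves both had a lower fitted level at 3M against 6W, by -0.20 and -0.33 on the log2 scale. The share of all genes with such a ratio order was not determined. An exact permutation test of 2 libraries against 2 cannot go below a two-sided p of 0.333, and the ratios are given as a description, with no test.

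**Figure D3:**
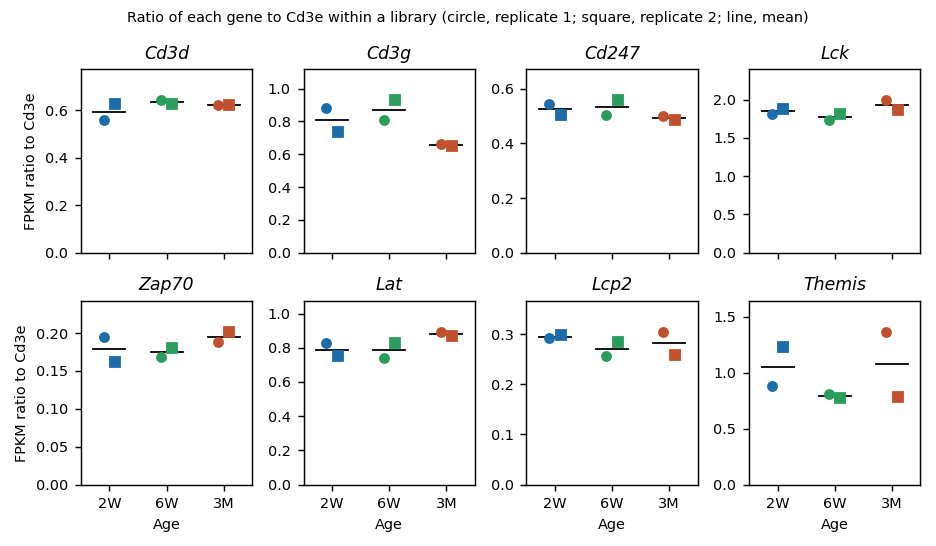
Ratio of the FPKM of each of 8 genes to that of Cd3e in the same library (y axis, from 0) by age (x axis); circles are replicate 1, squares replicate 2 and lines the mean of 2 libraries. The Cd3g ratio is 0.656 at 3M against 0.811 at 2W and 0.869 at 6W, and the Lat ratio is 0.882 against 0.788 and 0.784.

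Cd3g, Cd3d and Cd3e are neighbours on mouse chromosome 9. In RefSeq on the build GRCm38.p6, Cd3g and Cd3d start 1355 bases apart and run in opposite directions, and the start of Cd3e lies 27825 bases from that of Cd3d. Their promoters are shown because the ratio of Cd3g to Cd3e was lowest at 3M although the genes lie side by side. Each sequence is the 250 bases before the start site, on the strand of the gene, with capitals at each E-box (CANNTG) and ETS core motif (AGGAAG or CTTCCT on the other strand), letters that E proteins and ETS factors of T cells are known to bind. The windows are chr9:44980432-44980681 on the minus strand for Cd3g, chr9:44981536-44981785 on the plus strand for Cd3d and chr9:45009612-45009861 on the minus strand for Cd3e.
Cd3g: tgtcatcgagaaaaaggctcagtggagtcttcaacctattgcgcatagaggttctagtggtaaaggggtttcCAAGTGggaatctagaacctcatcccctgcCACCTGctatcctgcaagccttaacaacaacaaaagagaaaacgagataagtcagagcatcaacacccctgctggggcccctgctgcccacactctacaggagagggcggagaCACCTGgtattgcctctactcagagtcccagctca
Cd3d: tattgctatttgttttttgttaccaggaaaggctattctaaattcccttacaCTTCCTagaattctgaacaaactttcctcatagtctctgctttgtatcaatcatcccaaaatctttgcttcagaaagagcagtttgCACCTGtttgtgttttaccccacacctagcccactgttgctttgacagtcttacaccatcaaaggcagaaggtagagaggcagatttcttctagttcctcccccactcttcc
Cd3e: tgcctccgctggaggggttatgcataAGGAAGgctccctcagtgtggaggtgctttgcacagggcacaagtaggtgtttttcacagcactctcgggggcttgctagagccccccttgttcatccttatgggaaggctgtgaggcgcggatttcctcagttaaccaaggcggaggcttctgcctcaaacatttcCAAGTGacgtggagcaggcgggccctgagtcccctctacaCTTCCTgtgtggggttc

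The Cd3g window held 3 E-boxes and no AGGAAG motif, that of Cd3d held 1 of each, and that of Cd3e 1 E-box and 2 AGGAAG motifs. Shorter runs such as GGAA, which is present in the Cd3g window, were not searched. The capitals do not overlap each other. RefSeq matched all 9 genes with 13 start sites, since Zap70 has 3 and Lck and Themis have more than 1. At least 1 window of each of the 9 genes held an E-box, against 66.2% of 32851 promoter windows of the same length. The ETS-type motif AGGAAG was found for 7 of 9 genes, against 29.5% of windows, all but Cd3g and Themis. The RUNX motif TGTGGT, searched on both strands, was found for 2 of 9 genes, Zap70 and Lck, against 14.0% of windows, and TATAAA for 0 of 9, against 12.4%. A gene with several windows has more chances to hold a motif, and a match is only a run of letters.

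The mRNA table is given per transcript, and the 9 genes differed in how many transcripts held their counts. Cd3d, Cd3e, Cd3g and Zap70 had over 98% of their counts in 1 transcript, and Cd247 had 95.5%. Lck had 75.6% of its counts in ENSMUST00000067240 and 20.7% in ENSMUST00000102596, and Lcp2 had 79.7% in ENSMUST00000052413 and 20.3% in ENSMUST00000109329. Lat had 71.2% in ENSMUST00000032997 and 24.3% in TCONS_00113096, a transcript that the authors assembled. Themis was the most divided, with 58.8% in ENSMUST00000056097, 21.2% in ENSMUST00000060409 and 15.2% in ENSMUST00000105516. The share of ENSMUST00000056097 among Themis counts was 60.1% and 63.6% at 2W, 61.9% and 60.6% at 6W, and 55.8% and 48.5% at 3M, where both libraries were the lowest of the 6.

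By edgeR's quasi-likelihood test, 0 of the 32 member transcripts tested passed an adjusted p of 0.05 in any comparison, and the same was true of all 35277 transcripts (0.0% in each comparison). The number with an unadjusted p under 0.05 was 2 of 32 at 6W against 2W, against 7.71% of all transcripts, 4 at 3M against 6W, against 6.91%, and 2 at 3M against 2W, against 11.0%. DESeq2 called 2, 1 and 1 member transcripts, against 5.14%, 4.0% and 8.94% of the transcripts to which it gave an adjusted p. The one called at 3M against 6W was the main Cd3g transcript ENSMUST00000002101, with a log2 fold change of -0.75. At 6W against 2W and at 3M against 2W it called ENSMUST00000206793, a minor Lat transcript that was named only after its values were seen. The level of that transcript was 9.28 and 8.98 FPKM at 2W, 6.20 and 5.79 at 6W, and 4.68 and 4.42 at 3M, with no overlap between ages, while Lat as a whole did not fall in this order. The fourth call was ENSMUST00000161971, a minor Cd247 transcript listed at 0 in 3 of the 6 libraries. By edgeR's quasi-likelihood test, this transcript passed the threshold of the study at 6W against 2W (-9.2). At 3M against 2W, ENSMUST00000206793 (-1.04) and ENSMUST00000167288 (-1.06) passed it. The latter is a minor Lck transcript, also named after its values were seen. Estimated counts split reads between transcripts that share exons, so that shares of single transcripts are less certain than gene sums.

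The rest of the TCR pathway was described with 6 lists that hold 100 genes. All 100 were tested by edgeR's quasi-likelihood test with Benjamini-Hochberg adjustment. At 6W against 2W, 1 gene of the 100 rose (Lyn) and none fell, against 1.74% of all genes called, while 19 had an unadjusted p under 0.05, against 18.9%, and DESeq2 called 6 higher and 1 lower, against 6.37%. At 3M against 6W, 0 of 100 passed, against 0.00675% of all genes, while 16 had an unadjusted p under 0.05, against 14.3%, and DESeq2 called 3, against 3.0%. At 3M against 2W, 5 rose and 6 fell, so that 11 of 100 were called where 11.0% of all genes were, while DESeq2 called 20, against 14.9%. Of all genes tested by edgeR there, 1171 rose and 459 fell. With either 2W library left out, 0 of the 100 passed at 3M against 2W, and with either 6W library left out 2 of 100 did. The number was 8 without 3M replicate 1, where Cd4, Ptcra, Rasgrp1, Orai2 and Irf4 were among the calls lost, and 9 without 3M replicate 2, where Rasgrp1 and Irf4 were.

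At 3M against 2W, TCR chains and coreceptors had the lowest median of the lists, -0.26 over 13 genes. Of these, 3 were lower and 0 higher, where 11.0% of all genes were called. Trac, Trbc1, Trbc2, Trdc and Tcrg-C1, named after their values were seen, had -0.04, -0.29, -0.30, -0.265 and 0.43. None of them passed, with adjusted p of 0.928, 0.15, 0.0718, 0.148 and 0.0699 by edgeR's quasi-likelihood test. Cd8a, the coreceptor chain that brings Lck to MHC class I, had 1609 and 1557 CPM at 2W, 1481 and 1553 at 6W, and 1070.0 and 1142 at 3M. It fell by 0.52 on the log2 scale (SE 0.09, adjusted p of 0.0179 by edgeR's quasi-likelihood test). Cd4, the coreceptor for MHC class II, had 956 and 923 CPM at 2W and 611 and 694 at 3M, and fell by 0.53 (SE 0.10, adjusted p of 0.0241). Ptcra, the surrogate alpha chain of the pre-TCR, had 19.2 and 20.1 CPM at 2W and 9.68 and 12.0 at 3M, and fell by 0.85 (SE 0.17, adjusted p of 0.029). Cd8b1, the other chain of the CD8 coreceptor, named after its value was seen, had -0.24 (adjusted p of 0.425) and did not pass, and neither did Lck, with -0.16 (SE 0.10, adjusted p of 0.361 by edgeR's quasi-likelihood test). Differences between these genes in how much they changed were not tested.

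Of 18 further kinases and adaptors, 2 fell and 0 rose at 3M against 2W, where 11.0% of all genes were called. Their median was -0.14. Nck2, an adaptor that links SLP-76 to the actin skeleton, fell by 0.60 (SE 0.11, adjusted p of 0.0203 by edgeR's quasi-likelihood test) from 136 and 142 CPM to 95.7 and 87.4. Rasgrp1, which activates Ras behind LAT, fell by 0.40 (SE 0.09, adjusted p of 0.0362) from 731 and 714 CPM to 549 and 545. In the calcium, NFAT and NF-kappaB branches 1 of 18 fell, Orai2, a subunit of the calcium channel family opened by TCR signals, with a log2 fold change of -0.64 (SE 0.12, adjusted p of 0.0241), and the median of the branches was -0.01. By edgeR's quasi-likelihood test 0 of 19 negative regulators passed, with a median of -0.08 and 4 at an unadjusted p under 0.05, while DESeq2 called 4, all lower. The lowest p values among them belonged to the adaptors Sla2, with -0.42 (SE 0.11, adjusted p of 0.0623 by edgeR's quasi-likelihood test), and Sit1, with -0.58 (SE 0.16, adjusted p of 0.0631). DESeq2 called both, with adjusted p of 0.0123 and 0.0189. Sit1 had 39.9 CPM in 3M replicate 1 and 52.7 in 3M replicate 2, and without the latter its change was -0.83.

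TCR response genes, those that a TCR signal is known to induce, had a median of 0.21 over 18 genes. Of the 18, 1 rose at 3M against 2W, where 11.0% of all genes were called. This was Irf4, a transcription factor whose level follows TCR signal strength. Irf4 had 23.1 and 26.4 CPM at 2W, and 36.5 and 36.1 at 3M, the 6W libraries lying between. It rose by 0.55 on the log2 scale (SE 0.12, adjusted p of 0.0309 by edgeR's quasi-likelihood test). Irf4 is also expressed in B cells and plasma cells, whose 9 markers summed to between 342 and 428 CPM at 2W and 663 and 722 at 3M, 2 of the 9 having risen. Their part in the Irf4 value was not tested.

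Relatives of the members in other blood cells had the highest median, 0.47 over 14 genes. At 3M against 2W, 4 were higher and 0 lower, where 11.0% of all genes were called. Lyn, a Src family kinase like Lck that serves B and myeloid cells, had 21.1 and 21.7 CPM at 2W, 39.8 and 36.6 at 6W, and 39.1 and 42.3 at 3M. It rose by 0.93 (SE 0.11, adjusted p of 0.00846 by edgeR's quasi-likelihood test). From 2W to 6W Lyn rose by 0.84 (SE 0.11, adjusted p of 0.0324 by edgeR's quasi-likelihood test). That call was lost with any of the 4 libraries of 2W and 6W left out, where the log2 fold change lay between 0.78 and 0.90. Themis2, the relative of Themis in B and myeloid cells, rose by 1.29 (SE 0.18, adjusted p of 0.011 by edgeR's quasi-likelihood test) at 3M against 2W. Another call was Tyrobp, an ITAM adaptor of NK and myeloid cells, at 0.73 (adjusted p of 0.0431), which the naming rule left out and which was named after its value was seen.

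**Figure D4:**
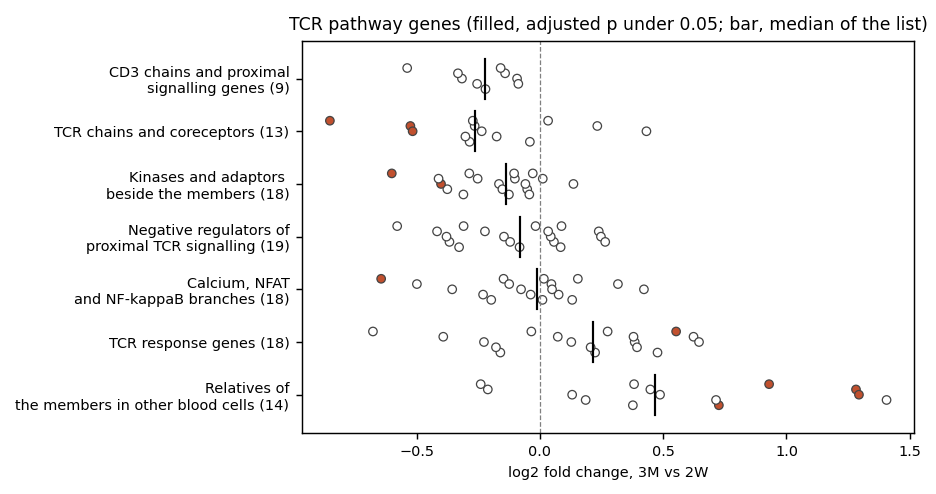
Log2 fold change at 3M against 2W (x axis) of the 9 genes and of the 6 pathway lists (y axis, number of genes in brackets); each circle is a gene, filled circles passed an adjusted p of 0.05 by edgeR's quasi-likelihood test, and bars mark list medians. The medians run from -0.26 for TCR chains and coreceptors to 0.47 for relatives in other blood cells, and none of the 9 genes in the top row is filled.

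Markers of cell types were also summed in each library. Double-positive thymocyte markers summed to 15620 and 17960 CPM at 2W, 14030 and 13890 at 6W, and 12900 and 12400 at 3M. By edgeR's quasi-likelihood test, 7 of these 12 markers fell at 3M against 2W while none rose, where 11.0% of all genes were called. Mature thymocyte markers summed to between 657 and 664 CPM at 2W and between 814 and 889 at 3M, and 2 of 12 rose. NK cell markers, of which Klra8 and Klre1 were at 0 in some libraries, summed to between 10.4 and 10.8 CPM at 2W and 34.3 and 35.7 at 3M, with 2 of 6 tested having risen. Myeloid markers summed to between 339 and 384 CPM at 2W, 716 and 772 at 6W, and 778 and 818 at 3M, with 7 of 11 having risen. Thymic epithelial markers summed to between 1651 and 1786 CPM at 2W and 2139 and 2268 at 3M, with 3 of 11 higher and 1 lower. Adipocyte markers summed to 79.5 and 102 CPM at 2W, 226 and 223 at 6W, and 501 and 245 at 3M, with 5 of 8 having risen at 3M against 2W. Of 7 fibroblast markers 2 rose and 2 fell, and 0 of 6 endothelial and 0 of 6 red blood cell markers tested passed, with 3 and 0 at an unadjusted p under 0.05 and 1 and 0 called by DESeq2. In the comparison of 3M with 6W, where the fitted change of all 9 genes was downward, 0 of the 88 cell type markers tested passed edgeR's quasi-likelihood test, while 25 had an unadjusted p under 0.05, against 14.3% of all genes, and DESeq2 called 5 higher and 4 lower, against 3.0%. The part of these shifts in the level of the 9 genes was not tested.

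Among 9424 other genes with a mean of at least 10 CPM, the 8 whose log2 CPM followed the mean of the 9 genes most closely over the 6 libraries were Cby1, Lsp1, Hist1h4a, Ldhb, Hist2h2bb, Mrpl2, Stk16 and Med24, with Pearson r between 0.991 and 0.994. Lsp1, a leukocyte actin-binding protein, had 377 and 290 CPM at 2W, 353 and 379 at 6W, and 182 and 253 at 3M. Of the 9424 genes, 500 (5.31%) had an r of 0.9 or more, and the values are given as a description.

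Circular RNAs (circRNAs) arise when the end of an exon is joined back to an upstream exon start, and reads across this junction count them. The circRNA table listed 14 of 6300 circRNAs from the 9 genes, 11 of them from Themis, 1 from Cd3e, and 1 each antisense to Lck and Lcp2, and none from Cd3d, Cd3g, Cd247, Zap70 or Lat. Those outside Themis had between 2 and 6 counts over all libraries. The total was 10663 to 21914 junction counts per library, so that only abundant circRNAs are measured with precision.

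One circRNA of Themis, novel_circ_000493, stood out by level. It is a single exon of 1052 bases on the plus strand of chromosome 10, from 28781691 to 28782742, inside Themis as RefSeq places it on GRCm38.p6. It had 303 and 398 junction counts at 2W, 491 and 516 at 6W, and 309 and 457 at 3M. Its rank among circRNAs was 1 or 2 in every library. It made up 2.84% and 3.58% of all junction counts at 2W, 2.62% and 2.36% at 6W, and 2.78% and 2.97% at 3M. Among the junction counts of Themis it held between 88.1% and 92.5%. Per 1000 estimated counts of all Themis transcripts there were 19.7 and 19.8 junction counts at 2W, 25.6 and 26.1 at 6W, and 17.6 and 29.5 at 3M. The 3M libraries differed more than the ages did. The estimated counts can include reads from within the circle.

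By edgeR's quasi-likelihood test, 0 of the 10 member circRNAs tested passed in any comparison, against 0.0%, 0.288% and 0.036% of 2779 circRNAs at 6W against 2W, 3M against 6W and 3M against 2W. At an unadjusted p under 0.05 there were 0, 0 and 1 of the 10, against 4.61%, 5.0% and 4.32% of all circRNAs, and DESeq2 called none of the 10, against 0.0%, 0.072% and 0.0%. The log2 fold change of novel_circ_000493 was -0.04 (SE 0.23, 95% interval -0.49 to 0.41) at 6W against 2W, -0.05 (SE 0.23) at 3M against 6W and -0.09 (SE 0.23, 95% interval -0.54 to 0.36) at 3M against 2W. The sign of the second value depended on the scaling, and it was 0.22 when total counts alone were used. The first value kept its sign but was -0.37 with total counts alone and -0.29 with DESeq2.

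The miR-181 family is the miRNA family best known for setting TCR sensitivity in thymocytes, where miR-181a lowers several phosphatases that restrain the kinases described above. The mature 5p arms are shown with the seed, bases 2 to 8, in capitals, because the family is defined by it. The sequences are from RefSeq on GRCm38.p6.
miR-181a-5p: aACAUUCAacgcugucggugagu
miR-181b-5p: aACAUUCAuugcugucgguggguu
miR-181c-5p: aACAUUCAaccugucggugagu
miR-181d-5p: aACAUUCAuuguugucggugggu

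The 4 arms share 1 seed, and 5 mature miRNAs of the deposited table carry it. miR-181a-5p comes from genes on chromosomes 1 and 2, as does miR-181b-5p, while miR-181c and miR-181d lie together on chromosome 8. The small RNA libraries held between 9181478 and 10994118 tag counts. miR-181a-5p was the most counted miRNA in every library, with 30.3% and 33.0% of all counts at 2W, 31.3% and 32.0% at 6W, and 25.7% and 27.8% at 3M. Both 3M libraries were the lowest, but the log2 fold change at 3M against 2W was -0.23 (SE 0.17, 95% interval -0.61 to 0.15, adjusted p of 0.326 by edgeR's quasi-likelihood test).

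The less abundant 5p arms differed from it. miR-181b-5p had 22091 and 25575 CPM at 2W, 16359 and 16729 at 6W, and 13016 and 12611 at 3M, with no overlap between ages, and fell by 0.90 (SE 0.18, adjusted p of 0.00597 by edgeR's quasi-likelihood test over 822 miRNAs) at 3M against 2W. miR-181d-5p had 1652 and 1614 CPM at 2W, 1190 and 1202 at 6W, and 885 and 995 at 3M. It fell by 0.80 (SE 0.19, adjusted p of 0.0112). The call for miR-181b-5p was lost without 3M replicate 2 (-0.76), and that for miR-181d-5p without 2W replicate 1 (-0.71), 6W replicate 2 (-0.68) or 3M replicate 1 (-0.72). miR-181c-5p had 2273 and 1415 CPM at 2W and 1683 and 1615 at 3M, with a log2 fold change of -0.16 (SE 0.24, adjusted p of 0.654). Thus 2 of 4 tested 5p arms were lower and 0 higher at 3M against 2W, where 29.9% of all miRNAs were called, 135 lower and 111 higher. Between 2W and 6W, 0 of the 4 passed, against 8.64% of all miRNAs, and 2 had an unadjusted p under 0.05, against 27.6%. Between 6W and 3M, 0 of the 4 passed, against 0.852% of all miRNAs, and 0 had an unadjusted p under 0.05, against 18.0%.

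The 3p arms, cut from the other side of the same hairpins, were lower at 3M in 4 of 5 tested. miR-181a-1-3p had 20904 and 16942 CPM at 2W, 14086 and 10030 at 6W, and 4060 and 7668 at 3M, with no overlap between ages, and fell by 1.69 (SE 0.31, adjusted p of 0.00351 by edgeR's quasi-likelihood test) at 3M against 2W. miR-181b-1-3p fell by 1.62 (SE 0.29, adjusted p of 0.00331), miR-181c-3p by 1.13 (SE 0.26, adjusted p of 0.0095) and miR-181a-2-3p by 0.95 (SE 0.21, adjusted p of 0.00806). All 4 calls were kept with each library left out in turn. miR-181d-3p, with 5.08 CPM or less, had -1.37 (SE 0.51, adjusted p of 0.0669), and miR-181b-2-3p was below the filter on low counts. miR-181b-1-3p was also lower at 6W against 2W, by 1.15 (SE 0.28, adjusted p of 0.0344), a call that was lost without 2W replicate 2 (-0.95), 6W replicate 1 (-1.15) or 6W replicate 2 (-1.06). At 3M against 6W, 0 of 5 passed, with 3 at an unadjusted p under 0.05, and DESeq2 called 2 of the arms of the family, against 9.03% of the miRNAs to which it gave an adjusted p. The fold changes of the 3p arm of miR-181a-1 and of miR-181a-5p thus lay far apart, although the 5p arm is shared with the gene on chromosome 2 and the arms of 1 gene cannot be compared directly.

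**Figure D5:**
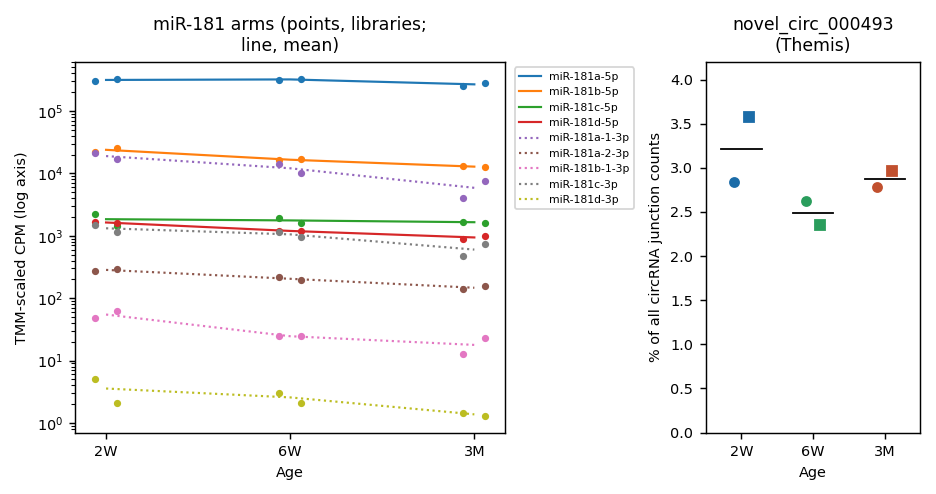
Left, TMM-scaled CPM (log axis) of the miR-181 arms by age, with points for libraries and lines for means of 2 libraries, solid for 5p and dotted for 3p; right, share of all circRNA junction counts (percent, from 0) held by novel_circ_000493 of Themis, with circles for replicate 1, squares for replicate 2 and lines for means. The miR-181a-5p line stays near the top of the axis while miR-181a-1-3p declines from 18923 to 5864 CPM, and the circRNA share ranges from 2.36% to 3.58%.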

How the data were processed

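Total RNA was extracted with TRIzol from the thymus of mice of 3 ages, with 2 libraries per age and RNA class. For mRNA, the authors deposited estimated counts per transcript (84.1% of the nonzero values were not whole) and FPKM values. For circRNAs, the authors deposited a count of junction reads, and for miRNAs a tag count. The submitters' processing notes name Bowtie 0.12.2 and the build mm8 without a role. The circRNA coordinates match GRCm38.p6, since 98.8% of the 6010 whose host gene RefSeq places there fall within its bounds.

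Estimated counts were summed per gene symbol and rounded, and 665 genes whose symbols differ only in case were joined, none of them a member. Rows with no symbol (372 transcripts, 0.70% to 1.20% of the counts of a library) were left out. edgeR 4.0.16 in R 4.3.3 was used with TMM scaling, filterByExpr and 1 age term over the 6 libraries, with Benjamini-Hochberg adjustment over all features tested and a threshold of 0.05. For circRNAs, at least 6 counts over the libraries were required. Fitted fold changes use a prior count of 0.125. DESeq2 1.42.0, total-count scaling, no filter, the 4 libraries compared, a replicate block, each library left out, exact symbols and annotated transcripts only were the alternatives. The fits were also run on simulated data, and no outcome is given here. Whether they could detect changes as small as those of the members was not tested.

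The members, the 6 pathway lists and the 10 cell type lists were chosen with earlier results of these data known. The text names the members, their transcripts with at least 10% of a gene's counts, their circRNAs, up to 3 called genes per pathway list, comparison and direction (2 with the smallest p where none was called) and the 8 genes most like the members. The values of 1 gene that this rule names are not reported here. The study's methods call the libraries of an age biological replicates, while the labels do not say from which or how many animals a library came.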

Additional observations from a re-analysis of the deposited data

How the results depend on the processing

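With 2 libraries per age, the numbers of calls depended strongly on the processing, while most directions did not. Of 351 refits of the 9 genes, 337 kept the direction and the side of the threshold, 12 changed sign and 2 newly passed it, both for Cd3g with DESeq2, which called 1 member at 3M against 6W and 1 at 3M against 2W. The cause was not tested. The members had 1681 estimated counts or more in every library and their circRNAs outside Themis 6 counts or fewer in all, and whether depth limited the calls was not tested. Without the replicate block, the numbers of genes called among all and among the 100 pathway genes were 257 and 1 at 6W against 2W, 1 and 0 at 3M against 6W, and 1630 and 11 at 3M against 2W. With the replicate block they were 5 and 0, then 0 genes in all, then 742 and 3. The replicate numbers could not be shown to pair the libraries, since the correlations over 14805 genes of the differences between replicates 1 and 2 were -0.06 (2W and 6W), 0.35 (6W and 3M) and -0.18 (2W and 3M). The block changed no call of a member, a member transcript or a member circRNA.

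At 6W against 2W, the genes called among all and among the pathway genes were 888 and 7 with DESeq2, 395 and 5 with total-count scaling, 467 and 4 without a filter, 662 and 6 with the 4 libraries alone, and 4 and 0 with annotated transcripts only, with 124 of all genes by exact symbol. With 1 library left out they ranged from 0 to 658 and from 0 to 6, and the miR-181 arms called from 0 to 1. At 3M against 6W, DESeq2 called 341 of all genes, 3 pathway genes and 2 miR-181 arms, and without a filter there were 19 of all genes and 2 miR-181 arms. The number of all genes was 0 with the 4 libraries alone, by exact symbol and with annotated transcripts only, and leaving out 1 library gave 0 to 11 genes and 0 to 1 miR-181 arm. At 3M against 2W, the 4 libraries alone gave 663 of all genes and 2 pathway genes, annotated transcripts only gave 922 and 6, DESeq2 gave 20 pathway genes, and leaving out 1 library gave 239 to 1741 and 0 to 9. Member transcripts called by DESeq2 were 2, 1 and 1 in the order of the comparisons above.

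Changes of sign were found where the log2 fold change was small. At 6W against 2W, the values with 1 library left out ranged from -0.11 to 0.31 for Zap70, from -0.027 to 0.30 for Lat and from -0.063 to 0.016 for Lcp2, which was 0.036 with total-count scaling. At 3M against 6W they ranged from -0.42 to 0.018 for Zap70 and from -0.37 to 0.17 for Themis. At 3M against 2W they ranged from -0.32 to 0.016 for Cd3d, from -0.33 to 0.14 for Zap70, from -0.25 to 0.10 for Lat, from -0.47 to 0.29 for miR-181c-5p and from -0.22 to 0.022 for novel_circ_000493. At 3M against 6W, novel_circ_000493 had 0.18 with DESeq2, 0.22 with total-count scaling, 0.092 without a filter, 0.062 with the 4 libraries alone and 0.22 with filterByExpr, and ranged from -0.043 to 0.25 with 1 library left out. Of the other named genes and miRNAs, 78 refits lost the call and 5 gained it.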
